A study of Gossypium arboreum with 12 samples.

Results

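Transcripts for lipid-transfer proteins and for a Sec14p-like protein were followed in ovules of diploid cotton, *Gossypium arboreum*, on the cotton GeneChip. The members are 5 probe sets of 21791 made against transcripts, 4 of them for lipid-transfer proteins and 1 for a Sec14p-like protein. Each probe set sums several short probes against the same transcript. The members were chosen by the study's own tables of differentially expressed transcripts. The 4 lipid-transfer probe sets were selected on the difference between the lines at 10 dpa (days post anthesis), and the Sec14p-like probe set was selected on that difference at 0 dpa. For those contrasts the values are therefore a description and carry no test.

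Lipid-transfer proteins are small, cysteine-rich proteins with a cavity that holds a lipid, and most are secreted to the cell wall. They are known for work at the plant surface, where members of the family help to build cuticle and wax, and some are held on the outside of the membrane by a lipid anchor. Sec14p-like proteins take their name from yeast Sec14p, which moves phosphatidylinositol and phosphatidylcholine between membranes and is needed for vesicle traffic from the Golgi. Cotton fibres are single epidermal cells of the ovule that initiate around anthesis and then elongate, a growth that calls for new membrane, cuticle and wall.

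The fuzzy-lintless (*Fl*) mutant ANOI 1960 was set against the fuzzy-linted (*FL*) wild type, and both were grown in the field. Ovules were taken at 10 dpa, during elongation, and at 0 dpa, at initiation, with 3 arrays for each line and stage and 12 arrays in all. The labels call these biological replicates but do not say whether they came from separate plants, so p-values measure the spread between these samples. The *Fl* line was made near isogenic by crossing back to an *Fl* parent and is not perfectly isogenic, so genetic background and the lintless trait cannot be told apart. RNA came from ovules with whatever fibre they bore, so fewer fibre cells and less RNA per cell cannot be told apart. Replicate 1 of *FL* at 10 dpa has 0 dpa in its stage field but 10 dpa in its title and source. Over all transcript probe sets it correlated at 0.914 to 0.915 with the other *FL* arrays of 10 dpa and at -0.565 to -0.555 with those of 0 dpa, and it was kept at 10 dpa.

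Levels are log2 signals relative to the probe set's own median over the 12 arrays, so they cannot be compared between genes and do not show whether a transcript was present. Differences between the lines are *Fl* minus *FL*, and differences between the stages are 10 dpa minus 0 dpa. A differentially expressed transcript (DET) has a limma p-value, adjusted by Benjamini-Hochberg over all 21791 probe sets, of 0.01 or less and a fold of 3 or more. Gene names are those of the closest *Arabidopsis* homolog. The match of a probe set to AT3G22600 is weaker than the cutoff stated in the methods, so its name is less certain. The 3 other lipid-transfer probe sets have identifiers ending in _s_at, whose probes can take up signal from close relatives. The number of arrays limits the precision of every value.

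The lipid-transfer transcripts differed between the lines in opposite directions at 10 dpa. All 4 probe sets had higher means at 10 dpa than at 0 dpa in both lines. The homologs of AT3G22600 and AT3G53980 were high only on the *FL* arrays of 10 dpa, and both probe sets for AT2G45180 were highest on the *Fl* arrays of 10 dpa. The Sec14p-like transcript was high on the *FL* arrays of 0 dpa and near its median on all other arrays. These patterns are the ones for which the members were chosen, as far as the line difference at the choosing stage goes.

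**Figure D1:**
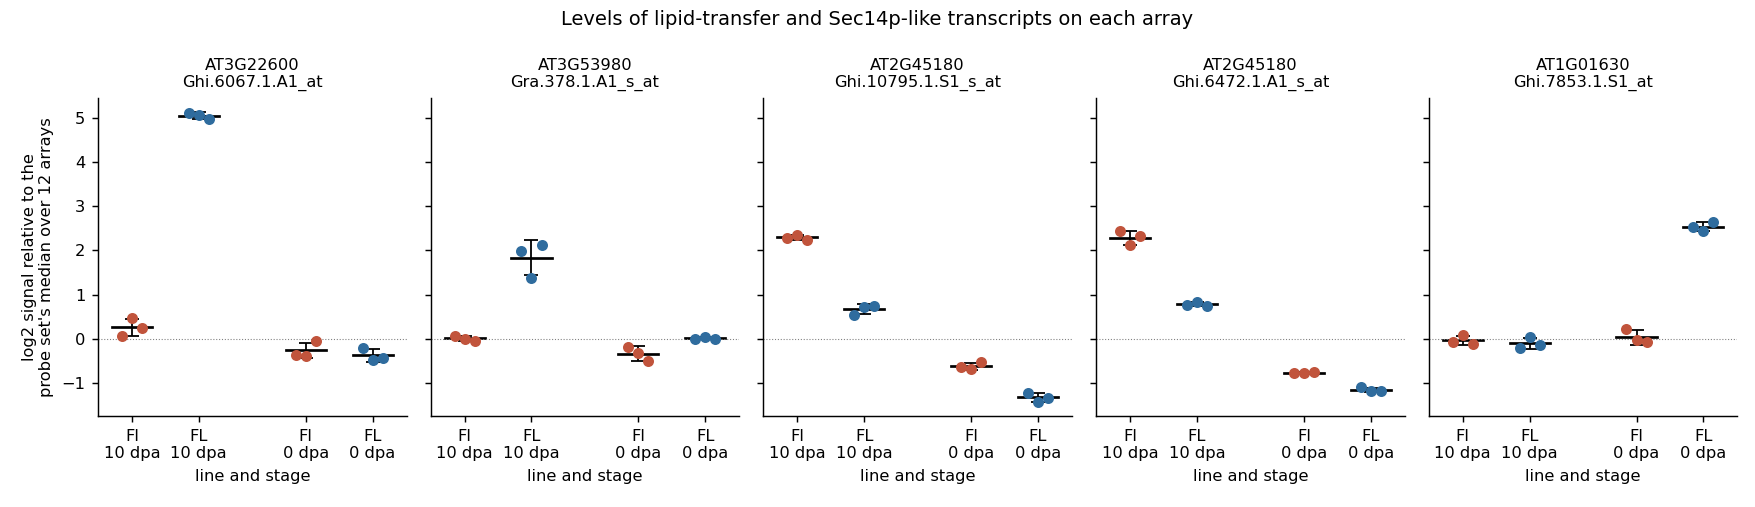
Log2 signal (vertical axis, relative to the probe set's median) of the 5 probe sets on each of 12 arrays, by line and stage (horizontal axis), with *Fl* in red and *FL* in blue; points are arrays, the wide bar is the group mean and the error bar is 1 SD (n = 3). The *FL* arrays of 10 dpa stand apart for AT3G22600, at 4.98 to 5.12, and the *FL* arrays of 0 dpa stand apart for AT1G01630, at 2.43 to 2.64.

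The homolog of AT3G22600 belongs to the superfamily of bifunctional inhibitors, lipid-transfer proteins and seed storage 2S albumins, and the *Arabidopsis* gene is counted among the lipid-anchored members. At 10 dpa its level was 0.06, 0.46 and 0.24 on the *Fl* arrays, against 5.12, 5.07 and 4.98 on the *FL* arrays. At 0 dpa it was -0.36, -0.38 and -0.06 on the *Fl* arrays, against -0.22, -0.49 and -0.44 on the *FL* arrays. The lines were far apart at 10 dpa and overlapped at 0 dpa. The difference at 10 dpa, which chose this probe set, was -4.80 (SE 0.12), or 27.9-fold lower in *Fl*, the 10th largest decrease of all probe sets. When quantile normalization was repeated over the arrays it was 9.86-fold lower. Here and below, that step was run on values already centred per probe set. It makes the arrays' deviations from the medians alike in spread and does not redo the normalization of signals.

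At 0 dpa, a contrast that did not choose it, the homolog of AT3G22600 differed by 0.11 (SE 0.12, 95% interval -0.14 to 0.37), with an adjusted p of 0.56 in limma. Bacterial transcripts spiked into the hybridization as controls averaged -0.24 ± 0.029 in *Fl* and 0.41 ± 0.12 in *FL* at 0 dpa (SD, n = 3), over 27 control probe sets, a difference of -0.65. Centring the arrays on these controls adds the size of that difference to every 0 dpa difference alike. That of this transcript was then 0.77, or 1.70-fold, still under the 3-fold limit. At 10 dpa the controls differed by -0.15.

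The homolog of AT3G53980 is a member of the same superfamily. At 10 dpa its level was 0.06, -0.01 and -0.04 on the *Fl* arrays, against 1.98, 1.38 and 2.13 on the *FL* arrays. At 0 dpa it was -0.19, -0.32 and -0.52 on the *Fl* arrays, against 0.00, 0.03 and 0.00 on the *FL* arrays. The arrays of the lines did not overlap at either stage. The *FL* arrays of 10 dpa were also the most scattered group of this probe set, with an SD of 0.40, and replicate 2 was the lowest of them.

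At 10 dpa, the contrast that chose it, the homolog of AT3G53980 was lower by 3.55-fold in *Fl* (-1.83, SE 0.15), the 171st largest decrease of all probe sets. With quantile normalization repeated, it was 2.19-fold lower, under the 3-fold limit. At 0 dpa it was -0.35 (SE 0.15, 95% interval -0.69 to -0.013) and missed the threshold in limma, with an adjusted p of 0.14. It was -0.36 with quantile normalization repeated and -0.35 with the arrays centred on their medians, and the constant added by centring on the spiked controls made it 0.30.

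The homolog of AT2G45180, a superfamily member that in *Arabidopsis* has been linked to disease resistance, was measured by 2 probe sets, whose identifiers end in S1_s_at and A1_s_at and which are called the S1 and the A1 probe set here. The levels of the S1 probe set at 10 dpa were 2.28, 2.36 and 2.24 on the *Fl* arrays, against 0.54, 0.73 and 0.74 on the *FL* arrays. At 0 dpa they were -0.65, -0.69 and -0.54 on the *Fl* arrays, against -1.22, -1.43 and -1.33 on the *FL* arrays. Every *Fl* array was above every *FL* array of its stage, and every array of 10 dpa was above every array of 0 dpa.

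The levels of the A1 probe set at 10 dpa were 2.43, 2.12 and 2.33 on the *Fl* arrays, against 0.77, 0.84 and 0.75 on the *FL* arrays. At 0 dpa they were -0.79, -0.77 and -0.75 on the *Fl* arrays, against -1.10, -1.19 and -1.19 on the *FL* arrays. The order of the groups was that of the other AT2G45180 probe set, again without overlap. Both are matched to the same homolog and the same UniGene transcript cluster. Whether they measure 1 gene or 2 was not tested. On a single array their centred values differed by 0.0128 to 0.237. Their r over the 12 arrays was 0.994, and over deviations from the group means it was -0.00829.

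At 10 dpa, the contrast that chose both, the S1 probe set was 3.09-fold higher in *Fl* (1.63, SE 0.078). The A1 probe set was 2.84-fold higher (1.51, SE 0.076) and fell outside the 3-fold limit, though the study lists it over that limit. These are the members just inside and just outside that limit, and 43 probe sets lay between 2.8-fold and 3-fold with an adjusted p of 0.01 or less. For every member the fold from the deposited values differed from the one the study lists, and the cause was not tested. Without replicate 1 of *FL* at 10 dpa, the S1 probe set was 2.95-fold higher, also under the limit. Without replicate 2 of *Fl* at 10 dpa, the A1 probe set was 3.01-fold higher, over it.

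At 0 dpa, which did not choose them, both AT2G45180 probe sets were already higher in *Fl*. The S1 probe set was higher by 0.70 (SE 0.078, 95% interval 0.53 to 0.87), 1.63-fold, with an adjusted p of 9.7e-05 in limma. The A1 probe set was higher by 0.39 (SE 0.076, 95% interval 0.23 to 0.56), 1.31-fold, with an adjusted p of 0.0037 in limma. By the unpaired test named in the methods the Benjamini-Hochberg adjusted p was 0.0198 for the S1 probe set and 0.0125 for the A1 probe set, over the threshold in each case. Centred on the spiked controls, the S1 probe set was 2.56-fold and the A1 probe set 2.07-fold higher.

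Of the 4 lipid-transfer probe sets, 0 were DETs at 0 dpa in limma, where 0.381% of all probe sets were. By the unpaired test of the methods 0 of the 4 passed both thresholds, and 58 of all 21791 probe sets did. At any fold, 2 of 4 passed the adjusted p, both of them for AT2G45180, against 10.2% of all probe sets, and 3 of 4 had an unadjusted p under 0.05, against 31.6%. The arrays of the lines did not overlap for 3 of 4, against 35.6% of all probe sets. Both AT2G45180 probe sets are in the same transcript cluster, so these counts may hold the same gene more than once. At 10 dpa 3 of the 4 were DETs, against 1.24% of all probe sets, all 4 passed the adjusted p at any fold, against 18.8%, and none overlapped, against 43.2%. Nothing is read from the counts at 10 dpa, since that contrast chose the probe sets.

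The Sec14p-like transcript (homolog AT1G01630) codes for a protein with the lipid-binding fold of the phosphatidylinositol transfer family. At 10 dpa its level was -0.08, 0.08 and -0.12 on the *Fl* arrays, against -0.22, 0.04 and -0.15 on the *FL* arrays. At 0 dpa it was 0.22, -0.04 and -0.09 on the *Fl* arrays, against 2.54, 2.43 and 2.64 on the *FL* arrays. The lines overlapped at 10 dpa and were well separated at 0 dpa.

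At 0 dpa, the contrast that chose it, the Sec14p-like transcript was 5.67-fold lower in *Fl* (-2.50, SE 0.10), the 4th largest decrease of all probe sets. It was 15.7-fold lower with quantile normalization repeated and 3.61-fold lower with the arrays centred on the spiked controls. At 10 dpa, which did not choose it, the difference was 0.07 (SE 0.10, 95% interval -0.15 to 0.29), with an adjusted p of 0.65 in limma. By qRT-PCR the study lists this transcript as lower in *Fl* at both stages. Why the arrays of 10 dpa differ from that was not tested.

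**Figure D2:**
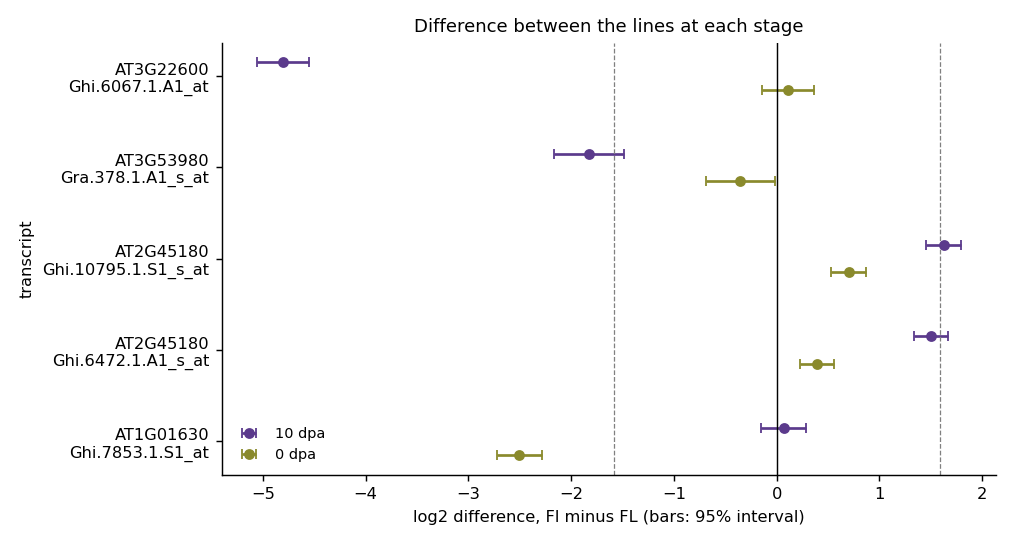
Log2 difference between the lines, *Fl* minus *FL* (horizontal axis), of the 5 probe sets (vertical axis) at 10 dpa (purple) and 0 dpa (olive), with 95% intervals and dashed lines at 3-fold. The 10 dpa values of the 4 upper probe sets and the 0 dpa value of AT1G01630 chose the members; both AT2G45180 probe sets lay above 0 at 0 dpa, at 0.70 and 0.39.

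The change between the stages is no contrast of the rule, but it uses the arrays on which the members were chosen. It is given as a description with no p, and counts past the DET thresholds in it are no test. In *FL* the homolog of AT3G22600 was 43.4-fold higher at 10 dpa than at 0 dpa (5.44, SE 0.12), the 23rd largest increase of all probe sets. The homolog of AT3G53980 was 3.53-fold higher (1.82, SE 0.15). Both AT2G45180 probe sets were also higher at 10 dpa, the S1 probe set by 3.99-fold (2.00, SE 0.078) and the A1 probe set by 3.86-fold (1.95, SE 0.076). The Sec14p-like transcript was 6.25-fold lower at 10 dpa (-2.64, SE 0.10).

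With quantile normalization repeated, the stage difference in *FL* was 15.7-fold for the homolog of AT3G22600, 2.22-fold for that of AT3G53980 and 16.6-fold for the Sec14p-like transcript. Directions were the same. All 5 probe sets met both DET thresholds in *FL*, where 3.87% of all probe sets did and 41.4% passed the adjusted p at any fold. Without replicate 1 of *FL* at 10 dpa, all 5 still did, with 42.5-fold for AT3G22600 and 6.02-fold for the Sec14p-like transcript. Nothing is read from these counts, since this contrast shares *FL* arrays with the one that chose each probe set.

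In *Fl* the stage difference of the AT2G45180 probe sets was larger than in *FL*. The S1 probe set was 7.57-fold higher at 10 dpa (2.92, SE 0.078) and the A1 probe set 8.35-fold higher (3.06, SE 0.076). The homolog of AT3G22600 was 1.44-fold higher (0.52, SE 0.12, 95% interval 0.27 to 0.78), and that of AT3G53980 was 1.27-fold higher (0.35, SE 0.15). The Sec14p-like transcript differed by -0.07 (SE 0.10, 95% interval -0.29 to 0.15) and its arrays of the stages overlapped. Only the 2 AT2G45180 probe sets met both DET thresholds in *Fl*, where 2.91% of all probe sets did and 31.9% passed the adjusted p at any fold. Nothing is read from that count either, since the *Fl* arrays also took part in the choice.

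**Figure D3:**
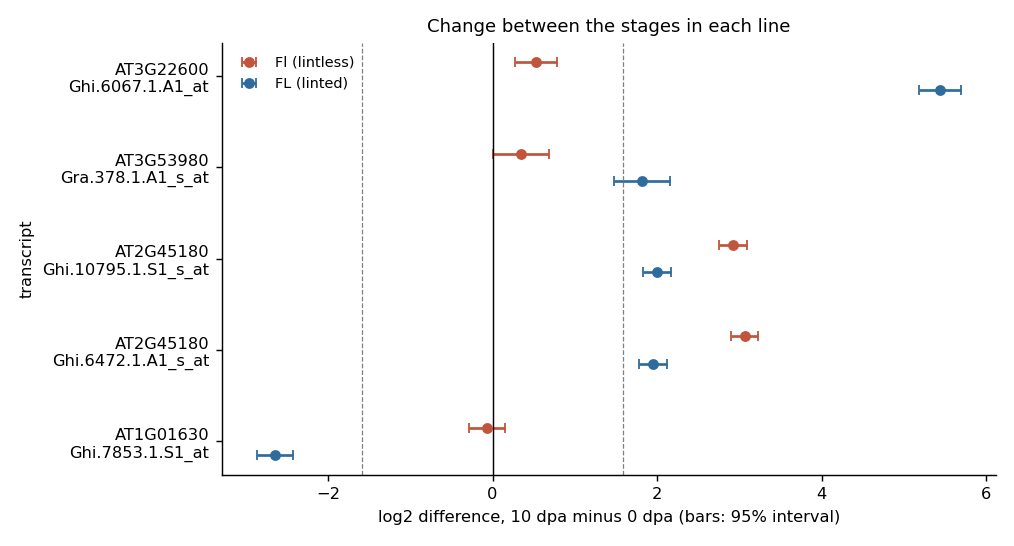
Log2 difference between the stages, 10 dpa minus 0 dpa (horizontal axis), of the 5 probe sets (vertical axis) in *Fl* (red) and *FL* (blue), with 95% intervals and dashed lines at 3-fold. The *FL* line had 5.44 for AT3G22600 and -2.64 for AT1G01630, where *Fl* had 0.52 and -0.07, and the AT2G45180 probe sets were higher at 10 dpa in both lines.

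How far the line difference itself changed between the stages is given by the interaction, the difference at 10 dpa minus that at 0 dpa. It holds the contrast that chose each member and is a description. It was -4.92 for the homolog of AT3G22600, -1.47 for that of AT3G53980, 0.92 for the S1 probe set, 1.11 for the A1 probe set and 2.57 for the Sec14p-like transcript. With quantile normalization repeated it was -3.38 for the homolog of AT3G22600 (10.4-fold, against 30.2-fold without), -0.78 for that of AT3G53980 and 3.99 for the Sec14p-like transcript (15.9-fold, against 5.95-fold without). Centred on the spiked controls it was 0.43 for the S1 probe set. The homolog of AT3G22600 and the Sec14p-like transcript met both DET thresholds, which 1.63% of all probe sets did. Nothing is read from that count, since the choosing contrast is part of the interaction.

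The order of the groups differed between members. The homolog of AT3G22600 was highest in *FL* at 10 dpa, then in *Fl* at 10 dpa, and the lines overlapped at 0 dpa below them. The homolog of AT3G53980 was highest in *FL* at 10 dpa and lowest in *Fl* at 0 dpa, and between them *Fl* at 10 dpa and *FL* at 0 dpa overlapped, 0.0067 apart. The Sec14p-like transcript stood high in 1 group, and the remaining 3 overlapped their neighbours.

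The homolog of AT3G22600 was among the most variable transcripts of the table. Its SD over the 12 arrays was 2.36, with 0.197% of all probe sets more variable, and its values spanned 5.61 on the log2 scale. The AT2G45180 probe sets had SDs of 1.44 for the S1 probe set and 1.43 for the A1 probe set, the Sec14p-like transcript 1.17 and the homolog of AT3G53980 0.909. Over the 12 arrays, which are 4 groups of 3, the homologs of AT3G22600 and AT3G53980 had an r of 0.96. Over deviations from the group means they had -0.328. The r of either with the AT2G45180 probe sets over the 12 arrays ran between 0.216 and 0.311. The r of the Sec14p-like transcript with the lipid-transfer probe sets ran between -0.67 and -0.285.

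Named transcripts with the most similar patterns were picked by Pearson r over the same 12 arrays, from the 234 probe sets that have a homolog in the study's tables. These r are carried by the 4 groups and have no p. Nearest to the homolog of AT3G22600 were NAC domain containing protein 83 (AT5G13180, r 0.998), a transcription factor, a RING/U-box protein (AT2G04240, r 0.997) and senescence-associated gene 21 (AT4G02380, r 0.996). No probe set of the whole table had a higher r than NAC domain containing protein 83. Nearest to the homolog of AT3G53980 were salt tolerance zinc finger (AT1G27730, r 0.985), also a transcription factor, a leucine-rich repeat protein (AT1G33590, r 0.977) and expansin-like B1 (AT4G17030, r 0.973), of a family of wall proteins. Each of these 6 was, like its partner, highest in *FL* at 10 dpa.

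Each AT2G45180 probe set was nearest to the other. After that came 2 probe sets for xyloglucan endotransglucosylase/hydrolase 7 (AT4G37800), an enzyme that cuts and rejoins xyloglucan in the wall. Their r was 0.989 with the A1 probe set for both, and 0.975 with the S1 probe set for both. At 10 dpa their means were 5.19 and 5.34 in *Fl*, against 2.38 and 2.55 in *FL*. At 0 dpa they were -2.48 and -2.65 in *Fl*, against -2.51 and -2.86 in *FL*.

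The Sec14p-like transcript had no close partner among the named transcripts. The nearest, an unknown protein (AT4G01935), had an r of 0.845, and 397 probe sets of the whole table had a higher one. A major facilitator superfamily protein (AT5G62680, r 0.844) and another unknown protein (AT5G66985, r 0.791) followed. Of all probe sets, 21 had an r above 0.95 with the Sec14p-like transcript, against 221 for the homolog of AT3G22600, 115 for that of AT3G53980, 100 for the S1 probe set and 133 for the A1 probe set.

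**Figure D4:**
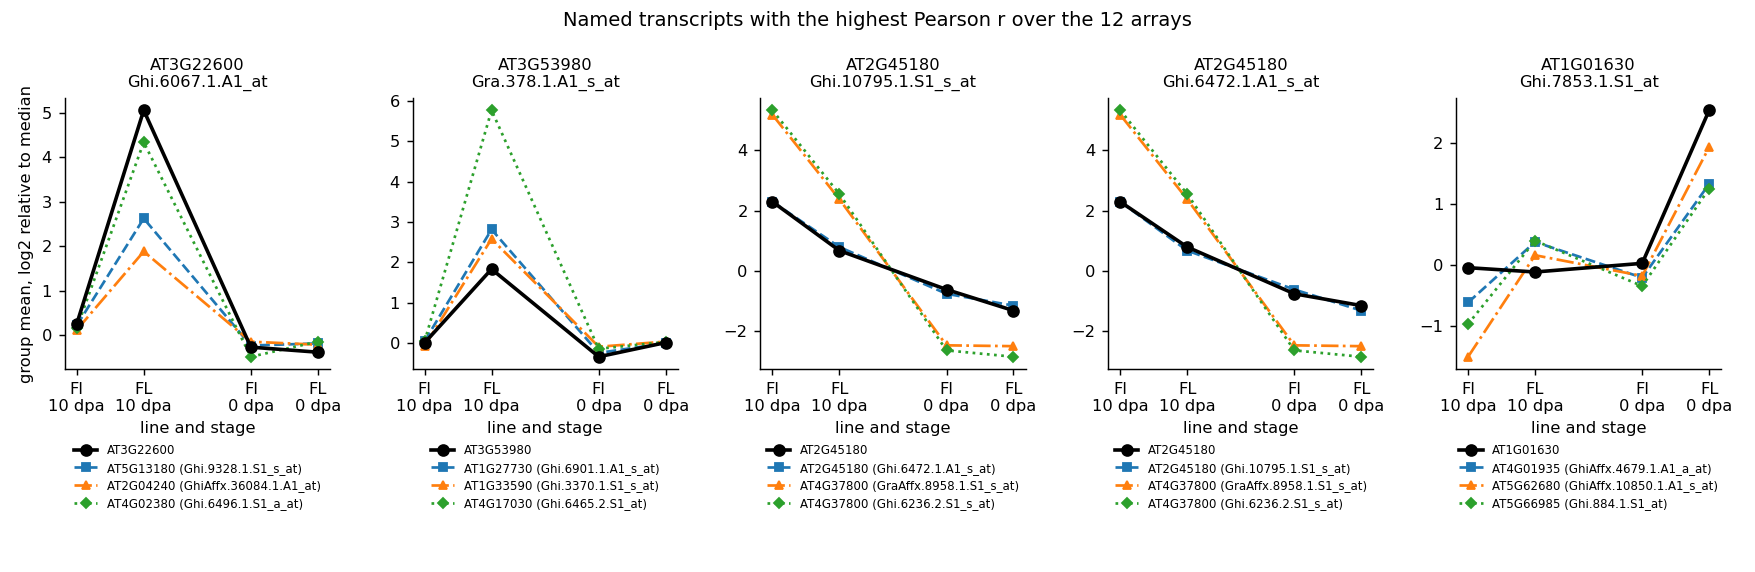
Group means of log2 signal (vertical axis, relative to each probe set's median, n = 3 arrays a group) by line and stage (horizontal axis) for each of the 5 probe sets (black) and the 3 named probe sets with the highest r (coloured); lines join groups only to guide the eye. The partners of AT3G22600 and AT3G53980 peak in *FL* at 10 dpa, and the partners of AT1G01630, at r of 0.845 or less, follow it less closely.

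A list of 7 other transcripts from the study's tables of 10 dpa, called lipid-handling here, was set beside the members. The study names its ABC transporters only as pleiotropic drug resistance proteins, so a part in lipid handling is assumed for them. The list was chosen on these arrays at 10 dpa, so its direction there is no independent evidence. All 7 were lower in *Fl* at 10 dpa, with a median of -2.15 against 0.044 over all probe sets. They were acyl-activating enzyme 7 (-2.24), which makes acetyl-CoA from acetate, acyl-CoA oxidase 4 (-1.71), an enzyme of peroxisomal fatty acid oxidation, phospholipase A 2A (-2.15), lipases of the alpha/beta-hydrolase superfamily AT2G44970 (-1.66) and AT2G39420 (-1.79), and the ABC transporters pleiotropic drug resistance 4 (-2.71) and pleiotropic drug resistance 7 (-2.18).

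At 0 dpa none of the 7 lipid-handling transcripts was a DET in limma, where 0.381% of all probe sets were, and 3 passed the adjusted p at any fold, against 10.2%. The number with an unadjusted p under 0.05 was also 3, against 31.6%. The hydrolase AT2G39420 was lower in *Fl* (-1.34, adjusted p 1.5e-06 in limma) and pleiotropic drug resistance 4 was lower (-0.66, adjusted p 2.9e-04 in limma). Acyl-CoA oxidase 4 was higher (0.80, adjusted p 0.005 in limma). The spiked controls differed by -0.65 at 0 dpa, and centring on them adds the size of that to each of these differences. That is about the size of the value for pleiotropic drug resistance 4. The median of the list was -0.011 at 0 dpa, against -0.0161 over all probe sets.

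Between the stages, 5 of the 7 lipid-handling transcripts met both DET thresholds in *FL*, all higher at 10 dpa, against 3.87% of all probe sets, with a list median of 1.73 against -0.0681 over all probe sets. In *Fl* 1 of 7 met them, against 2.91% of all probe sets, pleiotropic drug resistance 7, which was lower at 10 dpa (-2.12), and the median was -0.082 against -0.00803. The arrays of 10 dpa also chose this list, so these counts and medians are a description. All 4 lipid-transfer members shared with most of this list a higher level at 10 dpa in *FL*. In *Fl* the stage difference was 0.52 for the homolog of AT3G22600 and 0.35 for that of AT3G53980. It was 2.92 for the S1 and 3.06 for the A1 probe set of AT2G45180.

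**Figure D5:**
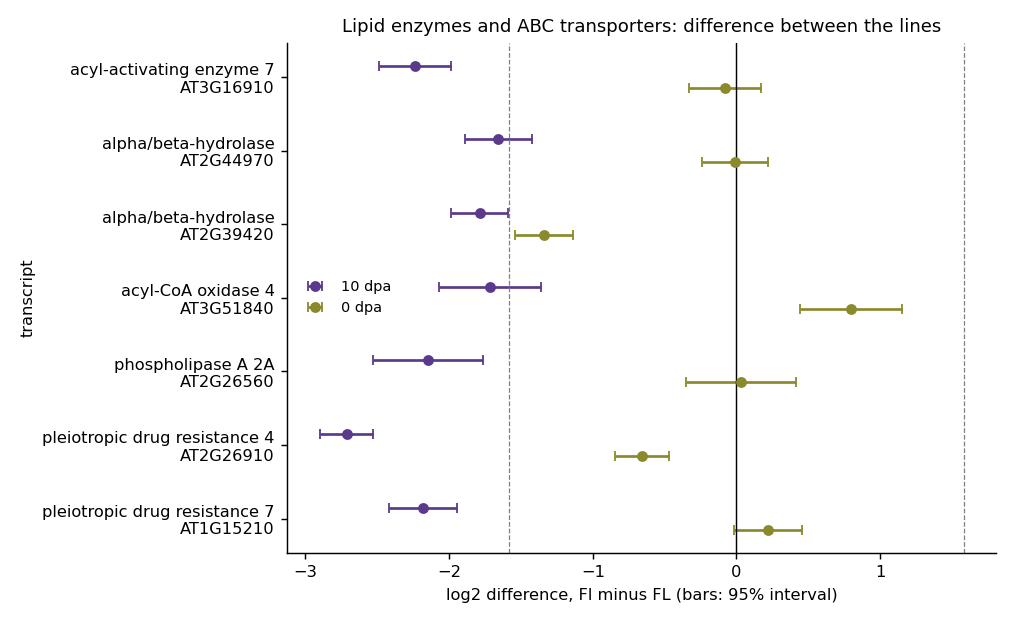
Log2 difference between the lines, *Fl* minus *FL* (horizontal axis), of 7 other lipid-handling transcripts (vertical axis) at 10 dpa (purple, the contrast on which the study chose them) and 0 dpa (olive), with 95% intervals and dashed lines at 3-fold. All 7 lay below 0 at 10 dpa, and at 0 dpa 4 of 7 did.

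A set of 3 transcripts was picked here from those the study lists as lower in *Fl* at 10 dpa, and is given beside the homologs of AT3G22600 and AT3G53980. The study's list does not mark them as transcripts of elongating fibre. At 10 dpa the difference between the lines was -6.20 for expansin-like B1, -6.32 for peroxidase 2 and -3.31 for beta-6 tubulin, and at 0 dpa it was -0.08, -0.03 and 0.24, none past the threshold in limma. Between the stages the 3 differed by 6.10, 6.08 and 3.48 in *FL*, higher at 10 dpa, and by -0.02, -0.21 and -0.07 in *Fl*. Some other wall transcripts of the tables went the other way, and some did not. Of all 13 probe sets there named for xyloglucan endotransglucosylase/hydrolases, expansins, arabinogalactan proteins or tubulin, a set put together after its values were seen, 7 were higher and 6 lower in *Fl* at 10 dpa. Among the 6 were xyloglucan endotransglucosylase/hydrolase 29 (-2.72), 5 (-1.98) and 4 (-1.73), all DETs, so that family was split. Among the 7, expansin A1 (0.36) and the xyloglucan endotransglucosylase/hydrolase AT5G57560 (1.15) were not DETs at that stage. FASCICLIN-like arabinogalactan 7 was higher by 5.68 and xyloglucan endotransglucosylase/hydrolase 32 by 1.68, and the 3 probe sets for xyloglucan endotransglucosylase/hydrolase 7 were higher by 2.55 to 2.81, as the AT2G45180 probe sets were. The part of fibre content in the differences of the members was not tested.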

How the data were processed

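Biotin-labelled cRNA from ovules was hybridized to the Affymetrix cotton GeneChip. The deposited values are log2 signals that the authors made with RMA (robust multi-array average) in the GeneSpring software, and every probe set in the deposited table is centred at a median of 0. Its 98 control probe sets were left out of the tests. All 12 arrays were fitted in limma 3.58.1 (R 4.3.3) with a mean for each line and stage and 8 residual degrees of freedom, and p-values were adjusted by Benjamini-Hochberg over 21791 probe sets. The fit was tested on simulated data. Samples were grouped by their titles.

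The members, the lists and the rule for named transcripts (all members, the 3 most similar named probe sets of each by r, and the lipid-handling list) were chosen with earlier results of these data known. Members are named by homolog, and the pair for AT2G45180 also by the end of its identifiers. No other probe set had an identifier that begins with the cluster stem of a member's identifier. Alternatives covered normalization, centring, test, filter, thresholds, replicate block and leaving out each array. The quantile normalization among them was run on the centred values, so it is not a new RMA of the arrays.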

Additional observations from a re-analysis of the deposited data

Results flagged for a closer look

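The interaction met both DET thresholds in the limma fit for 2 probe sets. It holds the contrast that chose each of them, so meeting the thresholds is no test. For the homolog of AT3G22600 the interaction was -4.9165, with a line difference of -4.80 at 10 dpa and 0.11 at 0 dpa. For the Sec14p-like transcript it was 2.5737, with a line difference of 0.07 at 10 dpa and -2.50 at 0 dpa. With quantile normalization repeated, the interaction was -3.38 for the homolog of AT3G22600 and 3.99 for the Sec14p-like transcript. Both values hold the contrast on which the probe set was chosen and are descriptions.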

How the results depend on the processing

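Over the 5 comparisons no called direction turned. Among the uncalled, that of AT3G53980 at 0 dpa did, through the constant that control centring adds. The stage difference of the Sec14p-like transcript in *Fl* also did, at 0.02 without replicate 1 of *Fl* at 0 dpa. The numbers of members past both thresholds were within 1.5 times under all alternatives run, with 1 exception. At a 2-fold limit, 4 members met the interaction thresholds instead of 2. For single members, quantile normalization took the homolog of AT3G53980 under 3-fold at 10 dpa (-1.13) and between the stages in *FL* (1.15), and took the A1 probe set of AT2G45180 over it at 10 dpa (1.94) and for the interaction (1.60). Centring on the spiked controls took the A1 probe set over it at 10 dpa (1.66) and the homolog of AT3G53980 for the interaction (-1.97). By the unpaired test of the methods, the homolog of AT3G53980 at 10 dpa had a Benjamini-Hochberg adjusted p of 0.0141. The causes were not tested. Without replicate 2 of *FL* at 10 dpa the interaction of AT3G53980 was -1.70, past the limit. Centring on the spiked controls raised the DETs of the whole table at 0 dpa to 196 from 83 and of the interaction to 600 from 355. A 2-fold limit gave 676 DETs at 10 dpa, 217 at 0 dpa, 2086 for the stage difference in *FL*, 1417 in *Fl* and 767 for the interaction, where the 3-fold limit gave 270, 83, 843, 634 and 355.

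The replicate numbers did not pair the samples. Deviations from the group means had an r of -0.203 to 0.085 between same-numbered arrays (0 of 18 pairs over 0.1). Between differently numbered arrays of different groups it was -0.115 to 0.17 (5 of 36 pairs over 0.1). Whether arrays shared a batch under other numbers was not tested. With the replicate block, members past both thresholds numbered 1 at 0 dpa, 3 at 10 dpa, 5 for the stage difference in *FL*, 2 in *Fl* and 2 for the interaction, as without it. Precision rests on 3 arrays a group, and brightness over background was not analysed here.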
